A study of Mus musculus with 2 samples.

Results

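Tbx21, Eomes and Zeb2 encode effector transcription factors of CD8 T cells. They were taken by name, as 3 of the 12798 genes in a table of UMI counts for 8562 colon CD8 T cells, and not by a rule on their levels. Earlier results of these data were known when the genes, lists and tests were chosen, so the results below are not independent of them. A UMI is a molecular barcode that counts each captured RNA molecule once. Tbx21 had 3111 UMIs in 2328 cells (27.2% of cells), Eomes 1475 UMIs in 1163 cells (13.6%) and Zeb2 1669 UMIs in 1290 cells (15.1%). No cell held more than 7 UMIs of any of the 3 genes, so a cell without a UMI cannot be read as a cell without the RNA.

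Tbx21 encodes T-bet and Eomes encodes eomesodermin, a pair of related T-box factors that CD8 T cells make after activation. T-bet, induced by antigen and by interleukin-12 and interferon-gamma signals, drives interferon-gamma, killer lectin receptor and cytotoxic genes. Eomes shares part of these targets and is also tied to memory and exhausted cells, and it is repressed by TGF-beta signals that favour resident cells of the gut. Zeb2, a zinc-finger and homeodomain repressor that binds E-boxes, is itself induced through T-bet and acts with it in terminal effector cells, which carry Klrg1 and Cx3cr1 and lose Il7r.

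The hosts were Rag1 knockout mice, which make no T or B cells of their own, and transferred T cells cause colitis in them. All hosts had received wildtype naive CD4 T cells (CD4+CD45RBhighCD25-) and splenic CD8 T cells (TCRb+CD8b+CD4-), and CD8 T cells were taken from the lamina propria of their colon 6 to 10 weeks later. The age given is 8 to 12 weeks at transfer. Donors of the CD8 T cells were Bcl6fl/fl mice or Bcl6fl/fl Cd8aCre mice. In the latter, Cre made under Cd8a control removes the part of Bcl6 between loxP sites. The annotation names 2 groups of 4 hashtags each, Cren and Crep, read here as Cre-negative and Cre-positive. No source spells this reading out, and none says whether a hashtag was 1 mouse or a pool. The p-values between groups therefore measure the spread between hashtags, which may be technical.

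All cells were captured in 1 pooled library. The hashtags held 900 to 1305 cells and 2635241 to 4201265 UMIs each, with a median of 2334 to 3000 UMIs per cell. At least 1 of 8 CD8 T cell markers was found in 99.9% of cells. The summed level of 11 myeloid markers ran from 354.7 to 490.8 CPM (UMIs scaled to a common total, with a further factor in the edgeR fits) in Cren and from 346.2 to 408.2 in Crep. At least 1 UMI of these 11 was found in 60.1% of cells, with Cst3 in 35.3%, Cd74 in 19.6%, Lyz2 in 13.9%, C1qb in 3.21%, C1qa in 1.90% and Csf1r in 0.362%. Bcl6 RNA was not lower in Crep: it stood at 29.4 ± 3.44 CPM (SD, n = 4) against 17.6 ± 2.201 in Cren, a log2 fold change of 0.75 (SE 0.14, adjusted p = 0.0293, edgeR). This count is taken near the 5′ end of the RNA. Where it lies relative to the deleted part was not tested, so the reading of Cren and Crep stays unchecked. Cd4 was also higher in Crep, at 6.86 ± 1.54 against 0.274 ± 0.322 CPM, but the summed level of 5 CD4 T cell markers was 29.5 to 79.1 CPM in Cren and 19.0 to 29.8 in Crep, and of the 4 tested 2 were positive and 2 negative (median log2 fold change -0.59). One Crep hashtag, Crep_4, stood apart: 63.1% of its cells fell in the authors' coarse cluster 4, against 8.29% to 12.7% in the other Crep hashtags and 0.0905% to 0.996% in the Cren hashtags.

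In the GRCm38 annotation, Tbx21 (ENSMUSG00000001444) lies at chr11:97098071-97115331 on the minus strand, Eomes (ENSMUSG00000032446) at chr9:118478212-118486132 on the plus strand, and Zeb2 (ENSMUSG00000026872) at chr2:44983632-45117395 on the minus strand. The antisense gene Zeb2os lies within Zeb2 and had 34 UMIs in 34 cells in a row of its own. Whether counting used strand is not given in the sources used here. The 250 bases before the start of each gene, from RefSeq (GRCm38.p6), are printed here since the results turn on which of the 3 genes are found together. Capitals mark an E-box of the kind ZEB factors bind (CAGGTG on either strand). The Tbx21 window is chr11:97115332-97115581, minus strand, the Eomes window chr9:118477939-118478188, plus strand, and the Zeb2 window, before the most upstream of 4 annotated starts, chr2:45117443-45117692, minus strand.
Tbx21: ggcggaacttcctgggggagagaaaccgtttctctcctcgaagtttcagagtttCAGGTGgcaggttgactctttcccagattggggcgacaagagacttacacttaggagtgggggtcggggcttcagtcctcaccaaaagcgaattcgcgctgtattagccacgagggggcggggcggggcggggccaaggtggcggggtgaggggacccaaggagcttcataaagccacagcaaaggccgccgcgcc
Eomes: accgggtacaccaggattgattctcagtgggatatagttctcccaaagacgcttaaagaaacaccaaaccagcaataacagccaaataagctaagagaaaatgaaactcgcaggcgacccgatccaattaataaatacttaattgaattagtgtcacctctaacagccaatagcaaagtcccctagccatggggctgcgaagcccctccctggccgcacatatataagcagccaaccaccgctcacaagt
Zeb2: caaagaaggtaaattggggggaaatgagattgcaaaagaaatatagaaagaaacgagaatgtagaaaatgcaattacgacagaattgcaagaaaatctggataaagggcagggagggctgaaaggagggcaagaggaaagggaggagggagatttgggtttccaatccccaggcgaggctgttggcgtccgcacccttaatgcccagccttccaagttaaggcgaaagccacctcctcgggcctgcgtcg
Tbx21 held 1 E-box, which began 196 bases before its start, and 17.2% of 32851 promoter windows of this length held at least 1. The T-box half-site GGTGTGA, searched on both strands and present in 3.33% of windows, was in none of the 3 sequences. The STAT motif TTCNNNGAA, present in 7.02% of windows, was not in these sequences either, though it occurred before other annotated starts of Zeb2. A match of letters is a description and not a site of binding.

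Over all cells, the first question was whether the level of the 3 genes differed between Crep and Cren. None passed the test across all 9653 genes tested, of which 59 (0.611%) were called at an adjusted p of 0.05. Zeb2 lay nearest to it and was higher in most Crep hashtags, while Tbx21 and Eomes overlapped between the groups.

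For Tbx21, 95.8, 127.7, 147.1 and 88.1 CPM were measured in Cren_1 to Cren_4, and 134.6, 126.7, 128.9 and 129.6 CPM in Crep_1 to Crep_4. The Crep values lay close together and inside the wider Cren range. The means were 114.7 ± 27.6 and 129.9 ± 3.34 CPM (SD, n = 4). The log2 fold change was 0.18 (SE 0.14, adjusted p = 0.71004, edgeR's quasi-likelihood test with Benjamini-Hochberg adjustment).

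For Eomes, levels in Cren_1 to Cren_4 were 57.8, 51.3, 70.0 and 39.5 CPM, and in Crep_1 to Crep_4 they were 57.2, 45.0, 52.8 and 92.0 CPM. Crep_4 was the highest of all 8, and the other Crep hashtags lay within the Cren range. The means were 54.6 ± 12.8 and 61.8 ± 20.8 CPM, with a log2 fold change of 0.16 (SE 0.26, adjusted p = 0.8997, edgeR). Without Crep_4 the difference was -0.09, and without coarse cluster 4 it was -0.28.

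For Zeb2, Cren_1 to Cren_4 stood at 44.5, 60.9, 58.7 and 33.3 CPM, while Crep_1 to Crep_4 stood at 92.0, 55.9, 85.1 and 102.6 CPM. Crep_1, Crep_3 and Crep_4 exceeded every Cren hashtag, and Crep_2 fell among them. The means were 49.4 ± 12.9 and 83.9 ± 20.02 CPM, a log2 fold change of 0.75 (SE 0.24) that did not pass (adjusted p = 0.292, edgeR). DESeq2 gave the same size, 0.76, with an adjusted p of 0.0243, and called 143 genes. The adjusted p over all alternatives ran from 0.0243 to 0.569, and without coarse cluster 4 the difference was 0.55.

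**Figure D1:**
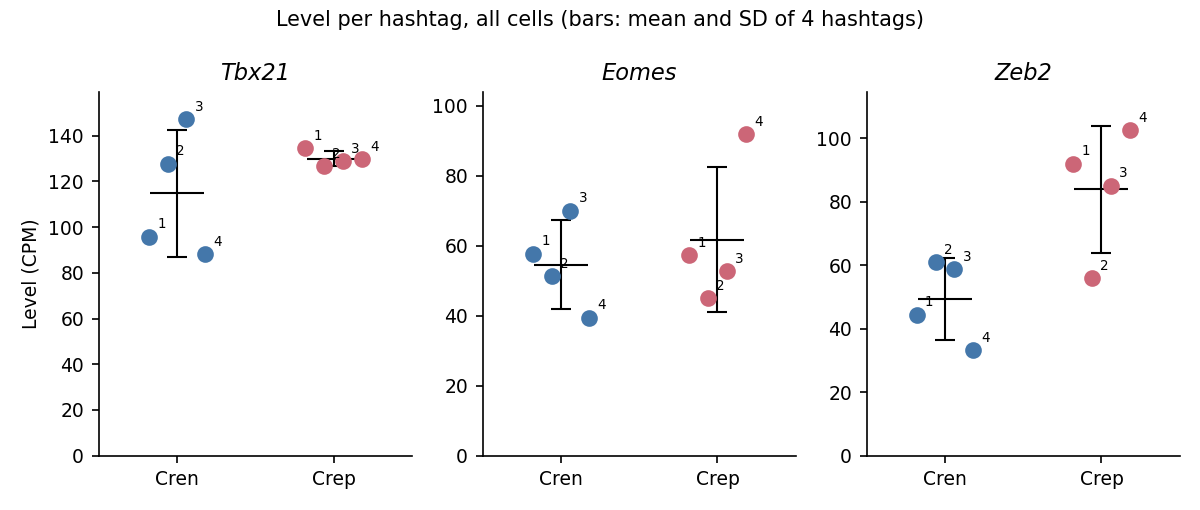
Level of Tbx21, Eomes and Zeb2 in CPM (y axis) in each of 4 Cren and 4 Crep hashtags, numbered as in the annotation, with the mean and SD as black bars. For Zeb2, 3 of 4 Crep points lie above every Cren point, while for Tbx21 and Eomes the groups overlap.

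The share of cells with a UMI was compared after each cell had been thinned to 2000 UMIs at random, which left 3468 Cren and 3171 Crep cells. Zeb2 was found in 7.82%, 9.28%, 9.47% and 5.72% of cells in Cren_1 to Cren_4, and in 14.7%, 9.64%, 13.3% and 17.8% in Crep_1 to Crep_4. All 4 Crep hashtags lay above all 4 Cren hashtags, although Crep_2 and Cren_3 had overlapping 95% Wilson intervals (7.86% to 11.8% and 7.67% to 11.6%), which cover counting error only. The means were 8.07% ± 1.73 and 13.9% ± 3.37 (SD, n = 4), and the exact two-sided permutation test gave p = 0.0286, the smallest that 4 against 4 allows, or 0.0857 adjusted over the 3 genes. Tbx21 was found in 18.9% ± 4.06 and 21.8% ± 0.460 of cells (exact permutation p = 0.314, adjusted 0.471). Eomes was found in 9.83% ± 2.36 and 9.97% ± 3.17 (exact permutation p = 1). Without thinning, the means were 11.5% and 18.8% for Zeb2, 25.9% and 28.5% for Tbx21, and 12.6% and 14.3% for Eomes. No cell type that should lack these genes was at hand to set the background of free RNA.

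The cells had been split by the authors into 12 fine clusters, numbered 0 to 11, and the 3 genes had different orders across them. The levels below are descriptions with no test, because the clusters were made from these same cells and genes. The spread is over hashtags with at least 20 cells in the cluster.

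Eomes separated the clusters most plainly into a high and a low set. Its level over all hashtags was 133.5 CPM in cluster 8 and 119.5 in cluster 7. It lay between 67.0 and 82.7 CPM in clusters 6, 10, 9, 3, 4 and 1, was 40.6 in cluster 11, and fell to 13.1, 12.0 and 11.2 CPM in clusters 5, 2 and 0. In these last clusters 1.63% to 2.76% of cells had an Eomes UMI at 2000 UMIs, against 21.1% in cluster 8 (95% Wilson interval 17.3% to 25.5%). Clusters 0 and 2 also had the highest level of Itgae, the CD103 integrin chain of intestinal resident T cells, at 355.5 and 331.0 CPM. The 2 orders did not match throughout. Cluster 5 had 139.2 CPM of Itgae, less than clusters 9 (236.2) and 11 (162.6), which had more Eomes. Of the 11 steps between neighbouring clusters in the order, 10 had an SD over hashtags. Of these, 3 exceeded the larger SD, from 7 to 6 (36.86 against 36.79 CPM), from 1 to 11 and from 11 to 5. Cluster 11 had only 1 hashtag with 20 cells and gave no SD of its own.

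Zeb2 was highest in cluster 9, at 230 CPM, and in cluster 4, at 201 CPM. The value of cluster 9 rests on 40 UMIs in 119 cells with a median of 1007 UMIs per cell, and no hashtag had 20 cells there. Cluster 4 held 32.0% of all Zeb2 UMIs in 11.3% of the cells. Its cells were also highest in Klrg1 (704.8 CPM) and Cx3cr1 (204.9 CPM), surface receptors of terminal effector cells. The other clusters high in Zeb2 did not all share this. Clusters 9, 11, 10 and 7 had 46.1, 3.13, 86.5 and 7.03 CPM of Cx3cr1, and 92.2, 68.8, 327.2 and 593.1 CPM of Klrg1. Zeb2 followed at 147 CPM in cluster 11, 122 in cluster 10, where 109 of 112 cells came from Cren_3, and 90.2 in cluster 7. It was lowest in clusters 5 (16.1 CPM) and 8 (15.1 CPM). Among the 10 steps with an SD, those from 4 to 11, from 10 to 7 and from 3 to 2 exceeded the larger SD. In the steps from 4 to 11 and from 10 to 7 only clusters 4 and 7 gave an SD. The 1 hashtag with 20 cells in cluster 11, Cren_1, had 84.8 CPM of Zeb2.

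Cluster 8 thus held the highest Eomes level and the lowest Zeb2 level of the 12 clusters. It did not differ beyond the spread from its neighbour in either order, cluster 7 for Eomes and cluster 5 for Zeb2. Its Eomes level was 192.4, 116.2, 122.9 and 131.6 CPM in Cren_1 to Cren_4 and 106.6 CPM in Crep_4, the hashtags with at least 20 cells. Zeb2 in the same cells was listed at 0 in Cren_1, where none of 87 cells had a UMI, and stood at 22.7, 16.3, 30.4 and 21.3 CPM in the others. This cluster was also highest in Pdcd1 (520.2 CPM) and Tox (392.9 CPM), an inhibitory receptor and a transcription factor of exhausted T cells. Tbx21 stood at 139 CPM there, in the middle of its order.

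Tbx21 varied least, 2.30-fold between its highest and lowest cluster, against 11.9-fold for Eomes and 15.2-fold for Zeb2. It was highest in clusters 4 (190 CPM) and 6 (172 CPM) and lowest in clusters 0 (90.7 CPM) and 1 (82.6 CPM). The step from cluster 9 to cluster 2 was the 1 that exceeded the larger SD among the 10 steps with an SD. The step from 11 to 10 had none, and cluster 9 gave no SD of its own. Cluster 7 had high Eomes and Zeb2 but a low Tbx21 level, 93.8 CPM. Of its 592 cells, 383 came from Crep_4.

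**Figure D2:**
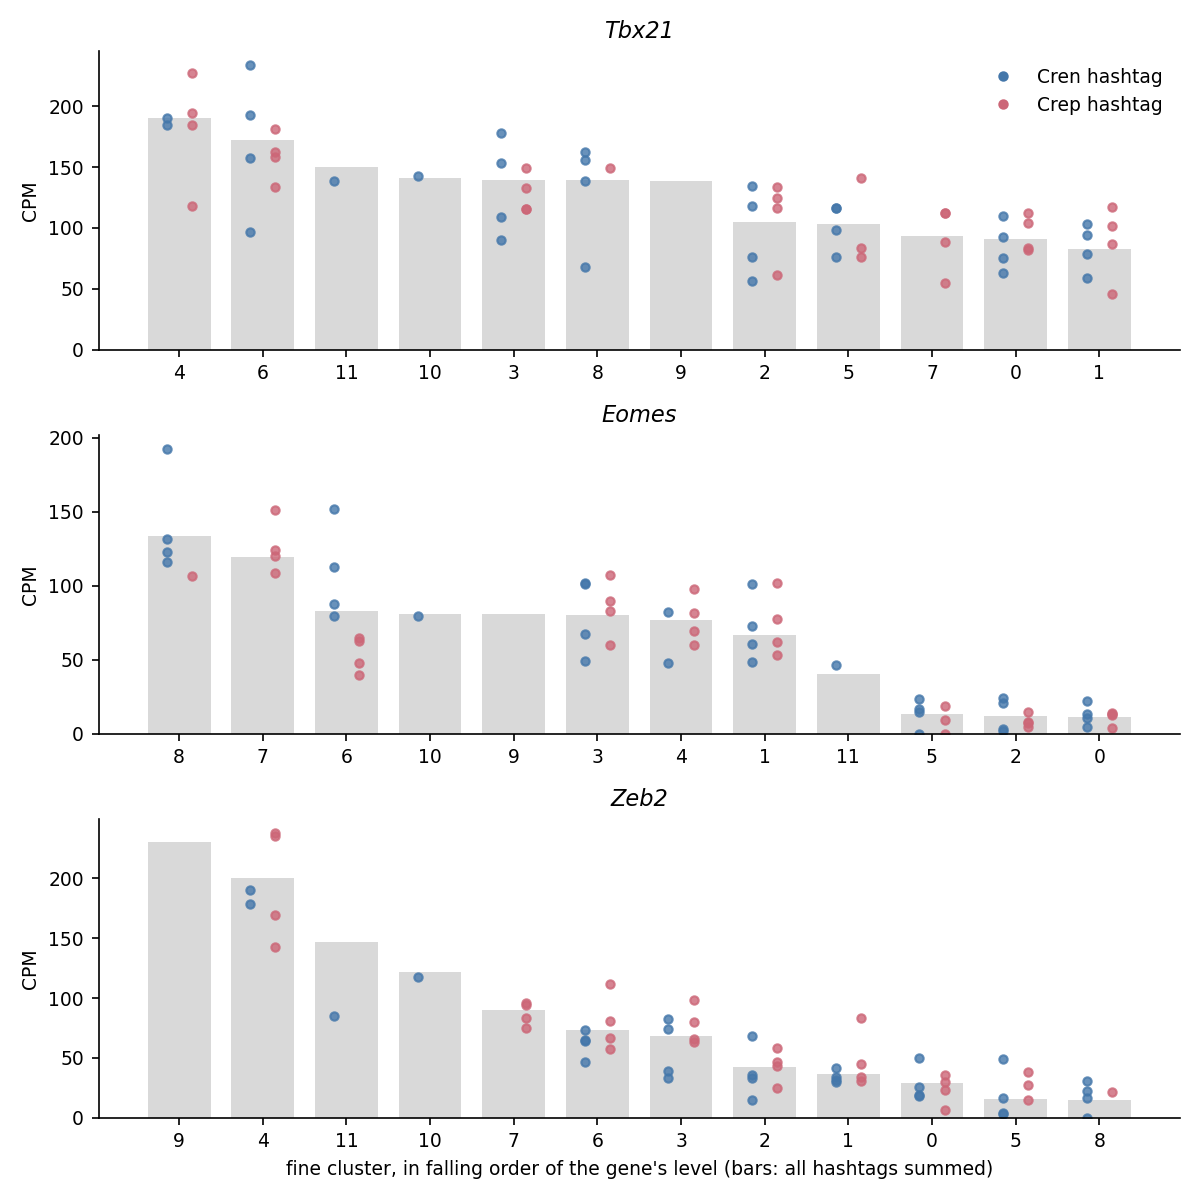
Level of each gene (y axis, CPM) in the 12 fine clusters, in falling order for each gene (x axis). Grey bars show all hashtags summed and points the hashtags with at least 20 cells, Cren in blue and Crep in red. Eomes drops to 11.2 to 13.1 in clusters 5, 2 and 0, and cluster 8 is first for Eomes and last for Zeb2.

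Likeness to each gene was measured as Pearson's r of log2(CPM + 1) over the 12 clusters, for 5588 genes with at least 20 CPM. The points share 1 library, and cluster depths differ. Tbx21 was followed most closely by Tpm4 (r = 0.88), a tropomyosin, and Serpinb9 (0.88), an inhibitor of granzyme B, then by Serpinb6b, Ier5 and Gm14005 (0.80 to 0.85). It ran most against Rgs10 (-0.86), Zfp1 and Isg20. The closest to Eomes was Il10ra (0.95), a chain of the interleukin-10 receptor, then Tm6sf1, Ubash3b, Sh2d1a and Gxylt1 (0.81 to 0.86). Tmem176b (-0.95), Ifitm2 and Ccnh ran against it. Zeb2 was followed by Mknk2 (0.93), a kinase of translation control, then by Cd6, Adora2a, Nars and Pfkp (0.83 to 0.87). Ctss (-0.88), Med25 and Spint2 ran against Zeb2. Among the 3 genes the values were 0.54 for Tbx21 with Zeb2, 0.44 for Tbx21 with Eomes and 0.40 for Eomes with Zeb2. Zeb2 had 0.27 with Cx3cr1 and 0.59 with Klrg1.

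Within fine clusters, Crep and Cren were compared where at least 3 hashtags of each group had 20 cells, which was so for clusters 0, 1, 2, 3, 5 and 6. None of the 3 genes passed in any of them by edgeR or by DESeq2, and Eomes in cluster 6 alone had an unadjusted p under 0.05. The shares of genes called there were 0.98%, 0.173%, 0.28%, 0%, 1.19% and 0.0269%, in that order. In clusters 0, 1 and 2, 464 of 5409, 298 of 4623 and 306 of 4995 genes had an unadjusted edgeR p under 0.05. For clusters 3, 5 and 6 the counts were 261 of 4548, 415 of 4044 and 212 of 3712. In cluster 3 DESeq2 called 2 genes. Eomes was too low to be tested in clusters 0, 2 and 5, and Zeb2 in cluster 5. CPM from these fits include a scaling factor per hashtag (TMM) and so differ from the levels by cluster above.

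The largest difference was that of Eomes in cluster 6. It stood at 97.7, 87.7, 165.7 and 126.5 CPM in Cren_1 to Cren_4 and at 67.7, 44.0, 70.6 and 52.1 CPM in Crep_1 to Crep_4. All Crep hashtags lay below all Cren hashtags, but some of these values rest on few UMIs. The share of all genes that separate the groups this way is not given here. Cren_1 to Cren_4 had 58, 12, 52 and 7 Eomes UMIs in 209, 44, 108 and 20 cells. Crep_1 to Crep_4 had 19, 9, 32 and 5 in 92, 61, 143 and 39 cells. The means were 119.4 ± 35.0 and 58.6 ± 12.7 CPM (SD, n = 4), and the log2 fold change of -0.93 (SE 0.25) did not pass over the 3712 genes tested (adjusted p = 0.332, edgeR).

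Tbx21 differed by -0.17 to 0.19 on the log2 scale in the 6 clusters, each within about 1 standard error of 0. Zeb2 differed by -0.10 to 0.39, with 0.39 (SE 0.28) in cluster 1 and 0.34 (SE 0.25) in cluster 6, or 0.14 and 0.15 without Crep_1. Between clusters 0 and 1, the largest, the difference between the groups was itself compared by an interaction term, which called 4 of 5242 genes (0.0763%) and none of the 3.

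With the mix of clusters 0, 1, 2, 3 and 6 held fixed at the same weights in every hashtag, limma called 23 of 7497 genes (0.307%) and none of the 3. On the log2(CPM + 1) scale Zeb2 differed by 0.30 (SE 0.17, adjusted p = 0.757), with 41.9 ± 11.7 CPM in Cren and 51.1 ± 9.14 in Crep (SD, n = 4). Eomes differed by -0.19 (SE 0.13, adjusted p = 0.825) and Tbx21 by 0.09 (SE 0.17, adjusted p = 0.944, limma). These fits leave out the other 7 clusters, among them 4 and 7, which held 4.58% ± 4.02 and 0.494% ± 0.274 of Cren cells but 18.1% ± 10.5 and 13.6% ± 15.5 of Crep cells, and 8, which held 10.1% ± 5.88 of Cren and 1.28% ± 0.835 of Crep cells. In cluster 4, Zeb2 stood at 190.0 and 178.3 CPM in the 2 Cren hashtags with 20 cells, and at 238.0, 142.8, 235.6 and 169.1 CPM in Crep_1 to Crep_4. The Crep values lay on both sides of the Cren values.

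**Figure D3:**
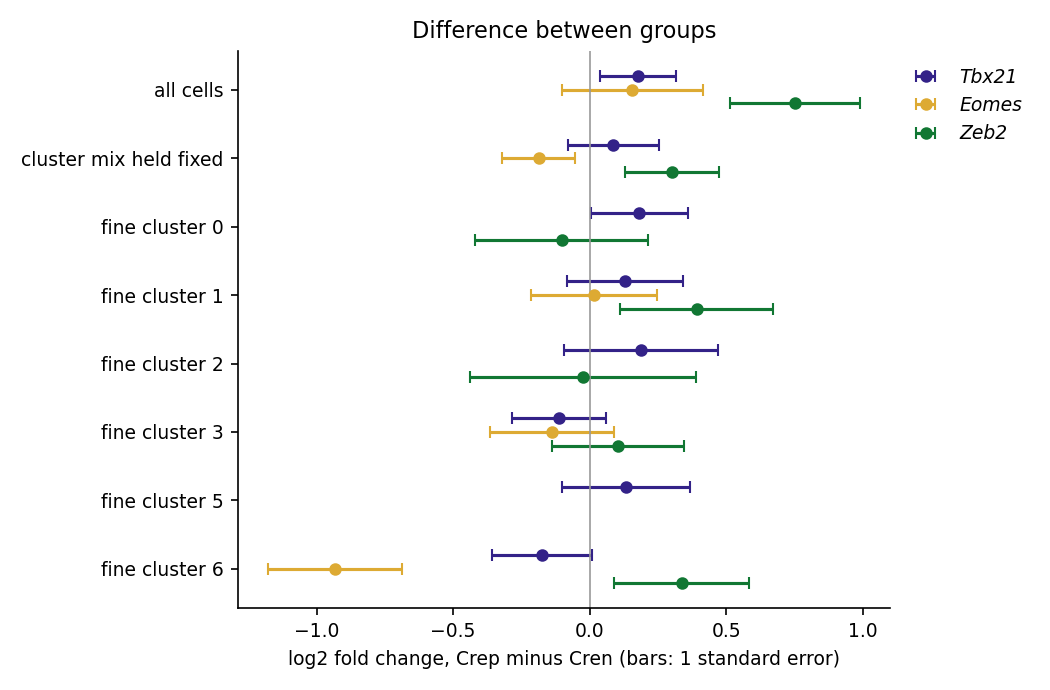
Log2 fold change of each gene between Crep and Cren (x axis, bars of 1 standard error) over all cells, with the cluster mix held fixed, and within 6 fine clusters (y axis). A cluster where a gene was too low to test has no point. Zeb2 lies at 0.75 over all cells and at 0.30 with the mix fixed, and Eomes at -0.93 in cluster 6.

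The genes that act before and after the 3 factors were compared between the groups over all cells in lists. The median log2 fold change of all genes was close to 0 (-0.001). Among all 9653 genes, 11.1% had an unadjusted p under 0.05 by edgeR, and DESeq2 called 1.48%. Of 21 genes for upstream signals, among them the receptors and kinases of interleukin-12, interleukin-2 and interferon-gamma, none passed by edgeR, 7 had an unadjusted p under 0.05, and DESeq2 called 2. The list split into 11 positive and 10 negative values, with a median of 0.01. Stat4, which relays interleukin-12, had 180.6 ± 9.81 CPM in Crep and 225.0 ± 13.3 in Cren (-0.32, SE 0.08, adjusted p = 0.0779, edgeR). Il12rb1, a receptor chain for the same cytokine, had 36.8 ± 2.70 and 25.3 ± 5.26 CPM (0.53, SE 0.14, adjusted p = 0.104).

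Of 12 other effector transcription factors, Id2 rose in Crep (217 ± 28.1 against 148 ± 15.2 CPM, log2 fold change 0.54, SE 0.10, adjusted p = 0.0293, edgeR) and Batf fell (88.5 ± 5.52 against 116 ± 5.93 CPM, -0.38, SE 0.08, adjusted p = 0.0494). Id2 encodes an inhibitor of E proteins, and Batf an AP-1 family factor that acts with IRF4. Of 10 memory and naive factors, Bcl6 passed by edgeR, 5 had an unadjusted p under 0.05, and DESeq2 called 3. Of the 10, 9 were negative, with a median of -0.25.

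None of 16 genes known to be activated by T-bet or Eomes passed by edgeR, 4 had an unadjusted p under 0.05, and DESeq2 called 2. Of the 16, 14 were positive, with a median of 0.40. Gzmb, a granule protease, had 3148 ± 630.3 CPM in Crep and 1059 ± 502.2 in Cren (1.57, SE 0.40, adjusted p = 0.227). Nkg7, a granule membrane protein, had 3342 ± 170.7 and 2364 ± 487.6 CPM (0.50, SE 0.12, adjusted p = 0.0902). Among 12 terminal effector genes, Klrd1, the CD94 receptor chain, rose (576 ± 75.9 against 390 ± 58.5 CPM, 0.56, SE 0.12, adjusted p = 0.0494, edgeR). Of these 12, 11 were positive, with a median of 0.76. Of 8 memory precursor genes none passed by edgeR or DESeq2 (2 at an unadjusted p under 0.05), 7 were negative, and the median was -0.50. Slamf6 had 13.2 ± 5.08 CPM in Crep and 36.2 ± 16.4 in Cren (-1.45, SE 0.46), and Cd27, a costimulatory receptor, 56.9 ± 8.46 and 77.3 ± 15.04 (-0.44, SE 0.14). Of 13 residency and TGF-beta genes, Tgif1, a repressor of TGF-beta target genes, fell (60.1 ± 7.98 against 106 ± 15.5 CPM, -0.82, SE 0.12, adjusted p = 0.0031). The mean shares of clusters 4, 7 and 8 differed between the groups, as given above, and no test of them is given. Cluster 4 held 9.89% of Cren_1 but 6.23% of Crep_2. Cluster 7 held 36.6% of Crep_4 and 2.50% to 8.05% of the other Crep hashtags. The part of these clusters in the values was not tested.

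Cells with a UMI of each factor were next compared with cells without one, inside each hashtag. Counts were thinned to 2000 UMIs per cell and summed per hashtag and class, with the hashtag as a block in edgeR (n = 8 hashtags). The classes follow detection and not presence of the RNA. Of 11 terminal effector genes, 3 were higher with Tbx21, 4 with Eomes and 6 with Zeb2, and none was lower. Of the residency genes, 1 of 12 was lower with Tbx21, 3 of 11 with Eomes and 2 of 11 with Zeb2. Among all genes tested, 0.633%, 0.906% and 0.553% were higher with Tbx21, Eomes and Zeb2, and 0.648%, 0.831% and 1.17% were lower. The calls depend on the depth of thinning. At 1000 UMIs per cell, which gives other classes and fewer genes to test, none of 6 list genes called with Tbx21 kept its call, against 6 of 17 with Eomes and 8 of 16 with Zeb2.

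Cells with a Tbx21 UMI (1347 against 5292 without) differed in 87 of 6789 genes (1.28%), 43 higher (0.633%) and 44 lower (0.648%). The strongest calls upward were Lgals1, which encodes a galectin, Zfp36l2, an RNA-binding protein, Dusp1, a MAP kinase phosphatase, and Bhlhe40, Btg2 and Ier2. All 6 were higher in 8 of 8 hashtags, by 0.21 to 0.34 on the log2 scale. Dusp1, for example, ran from 296 to 831 CPM (median 541) with a Tbx21 UMI and from 183 to 656 (median 430) without one (0.34, SE 0.05, adjusted p = 8.24e-08). At 1000 UMIs its difference was 0.11 (adjusted p = 0.840). The strongest calls downward were Cd7, Rps9, Gpr18, Rps15a, Rgs10 and AW112010, lower in 8 of 8 hashtags by 0.11 to 0.43. At 1000 UMIs, 15 genes were called with Tbx21, 10 of them among the 87, and of the 12 genes named here Zfp36l2 alone kept its call (0.33, adjusted p = 1.602e-05, edgeR). Of the 44 lower genes, 23 encode ribosomal proteins, and 86 such genes were among the 6789 tested. The median ribosomal share was 19.2% ± 2.00 with and 19.9% ± 1.75 without a Tbx21 UMI (SD, n = 8).

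Zeb2 itself was higher in cells with a Tbx21 UMI in 8 of 8 hashtags. It ran from 35.9 to 126 CPM (median 87.6) in them and from 31.8 to 106 CPM (median 56.1) in the others. The means were 89.5 ± 31.0 and 60.7 ± 23.9 CPM (log2 fold change 0.58, SE 0.12, adjusted p = 5.89e-04, edgeR). At 1000 UMIs the difference was 0.52 and did not pass (adjusted p = 0.233). Eomes was higher in 6 of 8 hashtags and did not pass (70.6 ± 27.4 against 56.7 ± 15.4 CPM, 0.31, SE 0.13, adjusted p = 0.363). Of 15 T-bet and Eomes targets only Cx3cr1 passed (0.62, SE 0.15, adjusted p = 0.00732), 14 were positive, and the median was 0.20 against 0.01 over all genes. Of 11 terminal effector genes, Cx3cr1, Klrk1 (0.40) and Klrc1 (0.18) rose. Of 10 memory factors, Tcf7, which encodes the stem-like factor TCF-1, fell (89.5 ± 55.3 against 119 ± 54.9 CPM, -0.47, SE 0.11, adjusted p = 0.00414), in 7 of 8 hashtags. Itgae was the 1 of 12 residency genes that fell (-0.43, SE 0.10, adjusted p = 0.00891), and none rose. No gene of 21 for upstream signals passed by edgeR, and 4 had an unadjusted p under 0.05, against 9.21% of all genes tested. None of Cx3cr1, Klrk1, Klrc1, Tcf7 and Itgae passed at 1000 UMIs (adjusted p from 0.204 to 0.688, edgeR).

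Cells with an Eomes UMI (657 against 5982) differed in 115 of 6621 genes (1.74%), 60 higher (0.906%) and 55 lower (0.831%). Itgae had the strongest call: it ran from 0 to 62.5 CPM (median 11.5) with an Eomes UMI and from 28.7 to 265 CPM (median 130) without one. It was lower in 8 of 8 hashtags, at 20.8 ± 21.6 against 142 ± 72.6 CPM (-2.86, SE 0.22, adjusted p = 6.64e-22, edgeR). The next calls downward were Trbv16, a T cell receptor segment (-2.68), Cd7 (-0.72), Il7r, the interleukin-7 receptor chain (-0.52), Actn2 (-1.27) and Fam241a (-1.22), all lower in 8 of 8 hashtags. At 1000 UMIs Trbv16 was at -0.70 and did not pass (adjusted p = 0.593, edgeR), while Itgae (-2.01), Cd7, Il7r, Actn2 and Fam241a passed. Of 11 residency genes, Itga1 (-0.72) and Cxcr6 (-0.39) fell with Itgae and none rose, and all 3 passed at 1000 UMIs too. Of 11 other effector factors, Zfp683, which encodes the residency factor Hobit, fell (22.4 ± 17.6 against 41.6 ± 21.9 CPM, -0.98, SE 0.27, adjusted p = 0.0307, edgeR). Bhlhe40 of the same list rose (0.26, adjusted p = 0.0052, edgeR). Tcf7 was the 1 of 10 memory factors that fell (-0.57), and none rose. At 1000 UMIs Tcf7 and Bhlhe40 did not pass and Zfp683 was too low to test.

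The strongest calls upward with Eomes were Klrg1, Ctla2a, Zfp36l2, Wdr95, Cd28 and Il10ra. Klrg1, an inhibitory lectin receptor, ran from 41.8 to 607 CPM (median 302) with an Eomes UMI and from 29.1 to 458 CPM (median 177) without one, and was higher in 8 of 8 hashtags (0.78, SE 0.09, adjusted p = 6.52e-11). Il10ra rose from 57.9 ± 27.0 to 107 ± 30.8 CPM (0.86, SE 0.15, adjusted p = 2.92e-05), also in 8 of 8. Of 15 T-bet and Eomes targets, Klrg1, Gzmk (0.66, a granzyme), Fasl (0.37) and Nkg7 (0.16) rose and none fell, with a median of 0.16 against 0.00 over all genes. Of 11 terminal effector genes, Klrg1, Klrk1 (0.42), Klrc1 (0.22) and Klre1 (0.69) rose and none fell. Of 21 upstream genes Ifngr1 alone passed (0.23). Of 5 memory precursor genes, Cd28 (0.54) rose and Il7r (-0.52) fell, 3 were positive, and the median was 0.45. Tbx21 (0.23, SE 0.12, adjusted p = 0.543) and Zeb2 (0.27, SE 0.16, adjusted p = 0.653) did not pass, each higher in 5 of 8 hashtags. Of 8 CD8 T cell markers, Cd8a (-0.32) and Cd3g (-0.17) fell. At 1000 UMIs 28 genes were called, 23 of them among the 115. Klrg1 (0.73), Il10ra (1.07) and Gzmk (0.48) passed there, and Ctla2a, Zfp36l2, Wdr95, Cd28, Fasl, Nkg7, Klrk1, Klrc1, Klre1, Ifngr1, Cd8a and Cd3g did not.

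Cells with a Zeb2 UMI (715 against 5924) differed in 112 of 6512 genes (1.72%), 36 higher (0.553%) and 76 lower (1.17%). Cx3cr1, the fractalkine receptor, ran from 12.6 to 153 CPM (median 80.3) with a Zeb2 UMI and from 4.04 to 60.2 CPM (median 35.0) without one. It was higher in 8 of 8 hashtags, at 83.9 ± 48.1 against 34.2 ± 19.2 CPM (1.27, SE 0.18, adjusted p = 1.27e-06, edgeR). Rap1b, a GTPase of integrin activation (0.46), Klre1 (0.74), Tmem163 (0.72), Klrc1 (0.36) and Lgals1 (0.39) followed. Of 11 terminal effector genes, 6 rose and none fell: Cx3cr1, Gzma, Klrk1, Klrc1, Klre1 and Itga4. Gzma, a granzyme, stood at 5325 ± 2805 against 2791 ± 1431 CPM (0.92, SE 0.13, adjusted p = 0.0148). The median of the list was 0.36, against 0.00 over all genes. At 1000 UMIs 101 genes were called, 65 of them among the 112, and these 6 and Rap1b, Tmem163 and Lgals1 passed there too.

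Of 15 T-bet and Eomes targets, Cx3cr1, Ifng (0.35), Ccl3 (0.57), Prf1 (0.52) and Il18rap (0.49) rose with Zeb2, and Cxcr3, a chemokine receptor, fell (126 ± 39.9 against 190 ± 28.6 CPM, -0.64, SE 0.12, adjusted p = 3.25e-04). Tbx21 rose from 120 ± 18.02 to 175 ± 46.8 CPM in 7 of 8 hashtags (0.55, SE 0.11, adjusted p = 0.00156, edgeR). It ran from 114 to 236 CPM (median 178) with a Zeb2 UMI and from 90.6 to 144 CPM (median 126) without. At 1000 UMIs it was at 0.49 and did not pass (adjusted p = 0.155, edgeR). This difference rests on the same cells and genes as that of Zeb2 with Tbx21 above and is not a separate finding. Eomes did not pass (0.40, SE 0.16, adjusted p = 0.326). Of 5 memory precursor genes, Il7r (-0.45), Cd28 (-0.49) and Cxcr3 fell and none rose. Il7r was lower in 8 of 8 hashtags, with 664 ± 221 against 897 ± 258 CPM. Itgae (-0.60) and Cxcr6 (-0.28) fell of 11 residency genes, and Ikzf3 (0.34) rose of 11 effector factors. At 1000 UMIs Cxcr3 and Il7r passed, while Ifng, Ccl3, Prf1, Il18rap, Cd28, Itgae, Cxcr6 and Ikzf3 did not.

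Ribosomal protein genes, 86 of the 6512 genes tested, made up 47 of the 76 genes lower with Zeb2, among them Rpsa, Rps2, Rpl27a and Rps9. None of the 55 genes lower with Eomes was a ribosomal protein gene. The median ribosomal share was 18.1% ± 1.86 of UMIs in cells with a Zeb2 UMI and 19.9% ± 1.77 in cells without, lower in 8 of 8 hashtags. Cells with a Zeb2 UMI had 2959 ± 226.8 UMIs before thinning, against 3117 ± 210.0. Because monocytes and macrophages also express Zeb2, the 11 myeloid markers were counted: 52.2% of cells with a Zeb2 UMI (95% Wilson interval 48.5% to 55.8%) and 49.4% of those without (48.1% to 50.6%) had a UMI of any of them. Of the 11, 8 had a higher share with a Zeb2 UMI, among them Itgam (0.979% against 0.287%), C1qb (2.94% against 2.09%), C1qc (1.26% against 0.760%), Cd68 (5.31% against 3.75%) and Lyz2 (10.5% against 9.71%). C1qa (0.839% against 1.42%), Csf1r (0.280% against 0.287%) and Cst3 (25.7% against 27.2%) had a lower one. The part of these values in the calls was not tested.

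**Figure D4:**
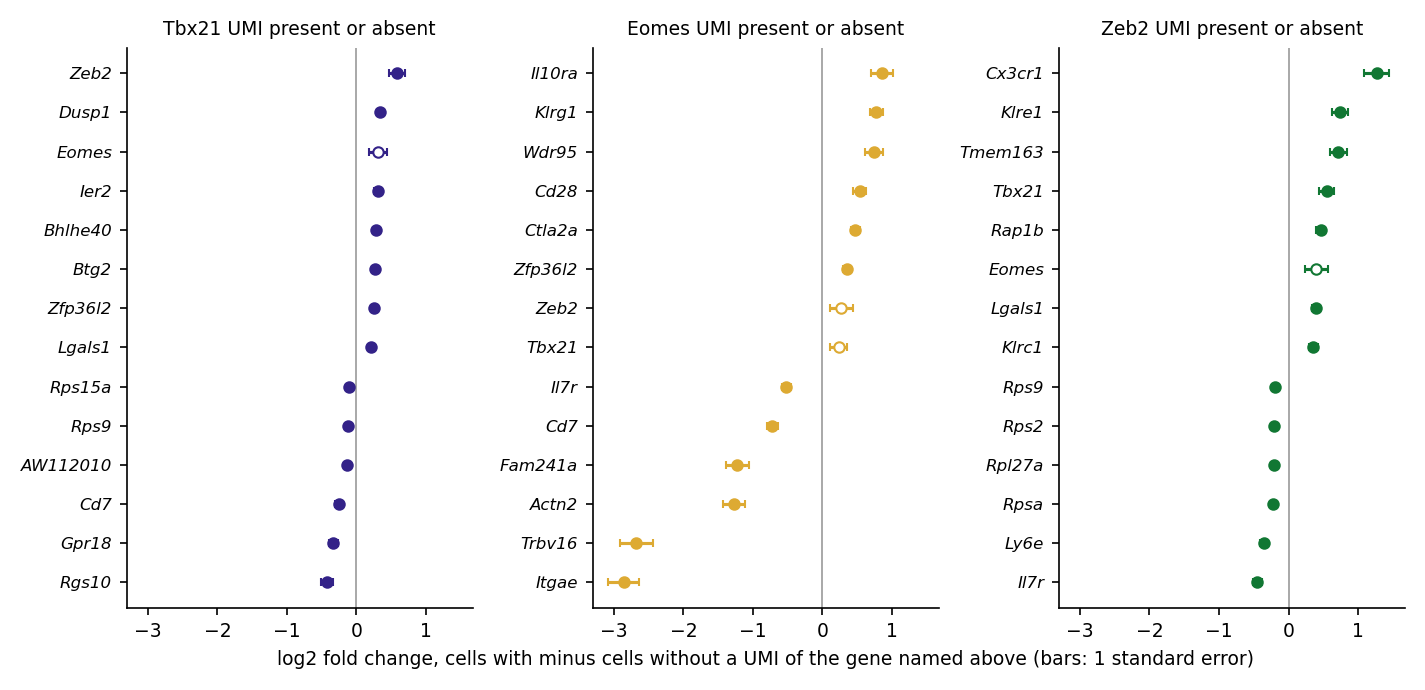
Log2 fold change (x axis, bars of 1 standard error) between cells with and without a UMI of Tbx21, Eomes or Zeb2, for the genes with the smallest p in each direction and the other 2 factors (y axis). Filled points passed an adjusted p of 0.05 and open points did not. Itgae lies at -2.86 for Eomes and Cx3cr1 at 1.27 for Zeb2.

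The genes called with Tbx21 and with Zeb2 shared 36, which is 41.4% of the former and 32.1% of the latter, all in the same direction, 18 of them ribosomal protein genes. Tbx21 and Eomes shared 15 (17.2% and 13.0%), Eomes and Zeb2 19 (16.5% and 17.0%), of which 17 went the same way. Cd28 and Tox were the other 2. Ahnak, Ifitm2, Itgae, Klrc1, Klrk1 and Rap1b were called with each of the 3 factors.

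T-bet and Eomes were compared directly in 1194 cells with a Tbx21 and no Eomes UMI and 504 cells with the reverse. Of 2510 genes, 40 (1.59%) differed, 21 higher in the Tbx21 class (0.837%) and 19 higher in the Eomes class (0.757%). Il7r was higher in the Tbx21 class in 8 of 8 hashtags, running from 667 to 1615 CPM (median 879) against 440 to 1387 CPM (median 558) in the Eomes class (0.46, SE 0.08, adjusted p = 5.29e-05). Actn2 (1.12), Capg (0.92), Fam241a (1.10), Xcl1 (1.91), Ifitm2 (1.15), Jaml (0.67), Btg2 (0.33), Inpp4b (0.74) and Cd8a (0.30) were higher with it. Xcl1 encodes a chemokine for cross-presenting dendritic cells, and Jaml an adhesion molecule of epithelial contact.

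In the Eomes class, Ctla2a was higher (875 ± 141 against 626 ± 105 CPM, 7 of 8 hashtags, -0.48 as Tbx21 minus Eomes class, SE 0.08, adjusted p = 1.78e-05). Sh2d1a, the adaptor SAP of SLAM receptors, was higher in 8 of 8 (277 ± 56.8 against 168 ± 30.7 CPM, -0.71, SE 0.13). Ptpn18 (-0.29), Ccl5 (-0.14), Cd28 (-0.50), Psmb9 (-0.40), Trav19 (-0.72), Il10ra (-0.78), Ccr2 (-0.53) and Ms4a6b (-0.30) were higher there too. Trav19 is a T cell receptor segment, and its level ran from 0 to 805 CPM over the hashtags. Zeb2 did not differ between the classes by this test (103 ± 37.7 and 85.6 ± 46.0 CPM, 0.27, SE 0.20, adjusted p = 0.766). DESeq2 called 8 genes here, 6 of them among the 40. At 1000 UMIs 1069 genes could be tested and 3 were called, none of them among the 40; Il7r stood at 0.31 (adjusted p = 0.279, edgeR) and Ctla2a at -0.44 (adjusted p = 0.0969).

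At 2000 UMIs, 65.2% of 6639 cells had no UMI of the 3 genes, 15.5% had Tbx21 alone, 6.94% Zeb2 alone and 6.61% Eomes alone, and 21 cells had all 3. Tbx21 and Zeb2 were found together in 189 cells, 1.27 times the number that the product of their shares in each hashtag gives, and the ratio exceeded 1 in 8 of 8 hashtags (1.03 to 1.53). For Tbx21 with Eomes the ratio was 1.14 (153 cells, over 1 in 6 of 8 hashtags), and for Eomes with Zeb2 it was 1.17 (86 cells, 5 of 8). With shares taken in each hashtag and fine cluster the ratios were 1.11, 1.05 and 1.02. These pair counts come from the same cells as the differences of the 3 genes between classes given above.

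Eomes and Itgae were found together in 17 cells, 0.172 times the product of shares, and 0.477 times within clusters. In no hashtag did this ratio reach 1. Ahr, a receptor that maintains intestinal T cells, behaved alike with Eomes (10 cells, 0.256 and 0.498). Zeb2 with Cx3cr1 had a ratio of 2.03 in 98 cells and of 1.13 within clusters. For Eomes with Klrg1 it was 1.504 and 1.118, and for Zeb2 with Klre1 1.53 and 1.119. Tcf7 was found less often than the product gives with Tbx21 (0.791 and 0.863), Eomes (0.673 and 0.857) and Zeb2 (0.741 and 0.911). Its ratio exceeded 1 in no hashtag with Tbx21 or Eomes, but in 2 of 8 with Zeb2 (0.274 to 1.32). These ratios carry no test.

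**Figure D5:**
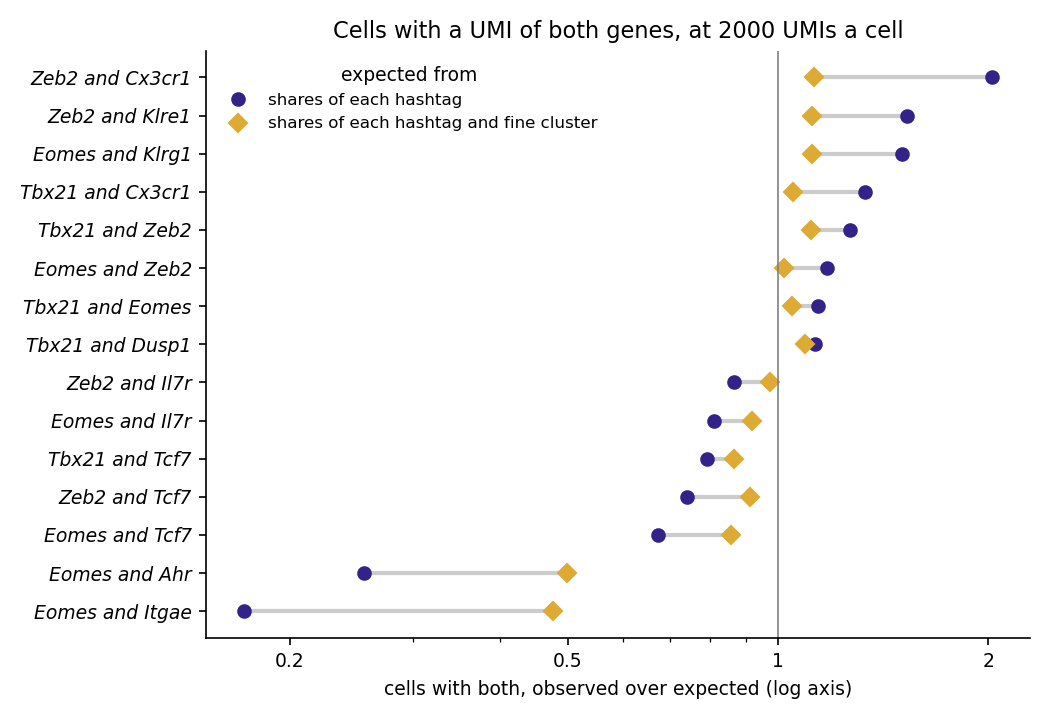
Number of cells with a UMI of both genes of a pair (y axis) over the number from the product of their shares (x axis, log scale), with shares taken in each hashtag (circles) or in each hashtag and fine cluster (diamonds). Zeb2 and Cx3cr1 move from 2.03 to 1.13, while Eomes and Itgae stay below 1, at 0.172 and 0.477.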

How the data were processed

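Single-cell RNA sequencing with a 10x 5′ v2 kit and feature barcodes was done on 1 pooled library of colon CD8 T cells, per the labels. The authors deposited unnormalized UMI counts for each gene in each cell, whose sum per cell equalled the annotated total in 100% of cells. Tools named in the submitters' processing notes are Seurat 4.3.0, Cell Ranger 7.0.0 and bcl2fastq 2.20.0.422, with the mm10 build. Hashtag, group and cluster came from the authors' annotation, which held 12 fine and 8 coarse clusters (resolutions 0.9 and 0.6). The percent of mitochondrial and of ribosomal UMIs per cell was taken from the authors' annotation. Its UMAP coordinates, scores made by the authors, stayed unused. All cells were kept without a search for doublets, and 115 cells not given their hashtag by both classifiers were left out in an alternative.

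Counts were summed per hashtag, or per hashtag and cluster or class, and tested with edgeR 4.0.16 (TMM, filterByExpr, robust quasi-likelihood, Benjamini-Hochberg over all genes tested). CPM were computed from these counts, with the count filter and TMM factors for the edgeR fits. The levels by fine cluster and with the cluster mix fixed used CPM without them. The level with the cluster mix fixed was tested with limma 3.58.1 on log2(CPM + 1), with a minimum mean of 10 CPM. DESeq2 1.42.0, limma-voom, no count filter, thinning and leaving out each hashtag were alternatives. The fits were tested on simulated data. Genes of the lists were named where they passed, up to 6 a list, or by the smallest p. In addition, 6 genes per direction were named beside each factor and 10 between the Tbx21 and Eomes classes (average log2 CPM of at least 4), and 5 most and 3 least alike over clusters. The genes, lists and tests were chosen with earlier results of these data known. The 4 hashtag numbers shared by the groups were not taken as pairs, since the correlations of deviations (-0.0591, 0.204, 0.184 and 0.154) did not all exceed 0.1.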

Additional observations from a re-analysis of the deposited data

How the results depend on the processing

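Over all cells, Tbx21 kept its sign in every alternative run; leaving out 1 hashtag gave 0.075 (without Cren_4) to 0.32 (without Cren_3), and 1.42 to 4.45 percentage points for its share of cells, again without Cren_4 and without Cren_3. Eomes changed sign with cells thinned to 2000 UMIs (-0.047) and without coarse cluster 4 (-0.28), and leaving out 1 hashtag gave -0.090 (without Crep_4) to 0.29. Zeb2 passed with DESeq2 (0.76, adjusted p = 0.0243) and in no other alternative; leaving out 1 hashtag gave 0.61 to 0.91 with adjusted p from 0.0967 to 0.49. The share of cells with an Eomes UMI differed by -1.33 (without Crep_4) to 1.08 percentage points when 1 hashtag was left out, and changed sign also without Cren_2 or Cren_4. With the mix fixed, leaving out 1 hashtag gave -0.030 (without Cren_4) to 0.23 for Tbx21, which was also below 0 without Cren_1, 0.18 (without Cren_1) to 0.47 (without Cren_2) for Zeb2, and -0.27 (without Cren_1) to -0.11 (without Cren_2) for Eomes, which stood at -0.40 with coarse clusters. Leaving out 1 hashtag also changed signs within clusters, none of them called: Tbx21 ran from -0.051 to 0.29 in cluster 1, -0.012 to 0.49 in cluster 2, -0.22 to 0.051 in cluster 3, -0.28 to 0.31 in cluster 5 and -0.30 to 0.022 in cluster 6. Eomes ran from -0.16 to 0.21 in cluster 1 and -0.30 to 0.050 in cluster 3, and Zeb2 from -0.24 to 0.35 in cluster 0, -0.30 to 0.64 in cluster 2 (0.073 with DESeq2) and -0.040 to 0.33 in cluster 3. Zeb2 was positive throughout in clusters 1 (0.14 without Crep_1, to 0.61) and 6 (0.15 without Crep_1, to 0.46). At 1000 UMIs, 15 genes were called with Tbx21 (10 of them among the 87), 28 with Eomes (23 of 115), 101 with Zeb2 (65 of 112) and 3 between the Tbx21 and Eomes classes (none of the 40, 1069 genes tested), where DESeq2 called 8. Leaving out 1 hashtag gave 61 to 84 genes with Tbx21, 73 to 118 with Eomes (73 without Cren_1 or Cren_2), 58 to 121 with Zeb2 (58 without Crep_3) and 24 to 40 between the classes (24 without Cren_3, 25 without Crep_2). The replicate block moved the calls over all cells from 59 to 103 and called none of the 3 genes (Tbx21 0.20, Eomes 0.13 and Zeb2 0.75, with adjusted p of 0.578, 0.920 and 0.484); hashtags 3 and 4 of both groups correlated best with their own number, and not all of the others did. Over all cells voom called 37 genes and DESeq2 143. The annotation columns used here give no clone size, so cells with expanded T cell receptors were not compared or left out. Depth limits the classes: a cell without a UMI may hold the RNA.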
